A study of Mus musculus with 7 samples.

Results

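5-formylcytosine (5fC) was enriched in all 6 pulldowns of mouse J1 embryonic stem (ES) cells over 85.7 Mb of autosomal sequence, in 26997 pieces of at least 200 bp. This was 3.61% of the 2371 Mb spanned by the domains of all 6 libraries and 9.56% of the 896 Mb enriched in at least 1 of them. The pieces are the base-pair intersection of the enriched domains, so the enriched state and the level of every pulldown were used to choose them. J1 is a line of strain 129S4/SvJae. The pulldowns came from TDG knockdown (TDG KD) cells, from siRNA control cells and from wild-type cells, with 2 libraries per condition, named TDG KD 1 and 2, control 1 and 2 and wild type 1 and 2. Cells of both siRNA conditions were grown without feeders and transfected repeatedly, whereas the wild-type cells were grown on irradiated mouse fibroblasts. 1 genomic input library was the background for all 6 calls, so sequence that is scarce in that input and sequence rich in 5fC cannot be told apart where all 6 calls coincide.

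5fC arises when TET dioxygenases oxidize 5-methylcytosine (5mC) through 5-hydroxymethylcytosine. TDG, a DNA glycosylase, removes 5fC from DNA, and base excision repair then restores an unmodified cytosine. In mammals these marks lie mostly at CpG dinucleotides. CpG islands (CGIs) are short stretches that have kept a high CpG density, and many of them lie at gene promoters.

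The depth was 20.4 to 45.9 M uniquely placed reads per pulldown, where M is mega. The share of autosomal sequence enriched, which is the background for every count below, was 6.77% in TDG KD 1, 23.4% in TDG KD 2, 23.8% in control 1, 22.6% in control 2, 20.0% in wild type 1 and 22.3% in wild type 2. TDG KD 1, the shallowest library, thus limited how much sequence could be shared, and its caller left 488 Mb unconfident. In the sequence enriched in the other 5 pulldowns but not in TDG KD 1, 136.6 Mb in all, that library was unconfident over 93.3% and background over 6.67%. Wild type 1, the deepest library, set 93.8% of the borders of the pieces, since its domains had a median width of 700 bp against 5900 to 24600 bp in the other 5 libraries.

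The following short pieces illustrate what the shared sequence looks like. All were chosen among pieces of 200 to 300 bp, whereas the median width of all pieces was 1800 bp. They were read from the mm9 assembly (NCBIM37), forward strand, with every CpG in capitals. The first 4 lie within 1 kb upstream of the transcription start site (TSS) of a protein-coding gene with a CGI promoter, outside annotated UTRs, and are those with the most CpG. Ctcf encodes the insulator protein CTCF, and Tmed9 a protein of vesicle transport between the endoplasmic reticulum and the Golgi.

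Ctcf, chr8:108159767-108160066: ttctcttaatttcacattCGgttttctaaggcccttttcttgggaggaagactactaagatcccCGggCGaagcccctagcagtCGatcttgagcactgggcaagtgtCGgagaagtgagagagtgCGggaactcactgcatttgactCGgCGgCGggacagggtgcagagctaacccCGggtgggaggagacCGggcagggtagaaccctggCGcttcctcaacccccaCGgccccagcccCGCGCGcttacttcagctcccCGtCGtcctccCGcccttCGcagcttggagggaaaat

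Zfp488, chr14:34792158-34792457: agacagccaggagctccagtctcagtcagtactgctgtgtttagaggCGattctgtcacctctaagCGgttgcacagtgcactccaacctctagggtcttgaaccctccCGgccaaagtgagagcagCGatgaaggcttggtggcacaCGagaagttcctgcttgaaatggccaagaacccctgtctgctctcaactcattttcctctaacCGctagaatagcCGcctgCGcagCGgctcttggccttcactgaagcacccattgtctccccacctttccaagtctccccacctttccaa

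Zfp119b, chr17:56085121-56085320: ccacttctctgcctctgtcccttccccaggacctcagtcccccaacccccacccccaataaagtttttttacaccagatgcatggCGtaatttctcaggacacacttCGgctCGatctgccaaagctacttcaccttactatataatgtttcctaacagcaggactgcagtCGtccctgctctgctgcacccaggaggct

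Tmed9, chr13:55693455-55693654: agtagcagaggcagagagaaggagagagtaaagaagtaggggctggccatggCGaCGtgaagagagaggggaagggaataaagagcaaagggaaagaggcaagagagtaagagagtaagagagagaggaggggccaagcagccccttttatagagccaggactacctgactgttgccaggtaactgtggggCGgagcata

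The piece at Ctcf held 20 CpG in 300 bp and lay 402 bp upstream of the TSS, and that at Zfp488 held 9 CpG. The domain value over the Ctcf piece was 0.0799 and 0.919 in TDG KD, 0.362 and 0.569 in the control and 1.91 and 0.605 in wild type. Zfp119b and Tmed9 had 4 and 3 CpG in 200 bp. CpG density thus varied widely even among these short pieces beside CGI promoters.

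The next 3 lie wholly in introns and are closest to the median piece, which had a GC content of 50.8% and 13.3 CpG per kb. Adamts2 encodes a protease that trims procollagen, and Cdh13 a cadherin anchored to the membrane by a lipid.

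BC125332, chr2:112096653-112096952: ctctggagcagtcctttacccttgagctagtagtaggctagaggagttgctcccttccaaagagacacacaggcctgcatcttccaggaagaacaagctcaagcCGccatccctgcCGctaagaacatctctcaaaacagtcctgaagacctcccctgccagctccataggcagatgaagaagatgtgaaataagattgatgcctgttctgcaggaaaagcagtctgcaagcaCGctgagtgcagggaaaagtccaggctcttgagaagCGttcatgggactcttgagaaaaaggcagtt

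Adamts2, chr11:50512623-50512922: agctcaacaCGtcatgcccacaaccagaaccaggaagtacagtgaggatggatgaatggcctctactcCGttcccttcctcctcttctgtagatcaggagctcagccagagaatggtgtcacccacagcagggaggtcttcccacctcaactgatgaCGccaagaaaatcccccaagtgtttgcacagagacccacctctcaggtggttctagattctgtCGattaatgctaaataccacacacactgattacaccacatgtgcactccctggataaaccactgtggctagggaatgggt

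Cdh13, chr8:121539067-121539366: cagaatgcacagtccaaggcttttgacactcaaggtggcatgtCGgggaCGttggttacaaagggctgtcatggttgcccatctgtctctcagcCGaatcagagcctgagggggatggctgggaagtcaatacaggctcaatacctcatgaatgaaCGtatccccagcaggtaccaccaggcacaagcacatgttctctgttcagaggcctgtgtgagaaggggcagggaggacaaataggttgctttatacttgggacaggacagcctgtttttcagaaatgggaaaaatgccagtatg

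Each of the 3 intronic pieces held 4 CpG in 300 bp. The last pair shows the other extreme, with 0 CpG at more than 50 kb from any annotated gene, both on chromosome 11.

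Far from genes, chr11:6898901-6899100: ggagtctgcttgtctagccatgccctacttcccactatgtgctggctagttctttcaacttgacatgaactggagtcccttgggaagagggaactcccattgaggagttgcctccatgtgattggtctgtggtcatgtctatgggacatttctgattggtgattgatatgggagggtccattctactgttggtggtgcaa

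Far from genes, chr11:20813101-20813300: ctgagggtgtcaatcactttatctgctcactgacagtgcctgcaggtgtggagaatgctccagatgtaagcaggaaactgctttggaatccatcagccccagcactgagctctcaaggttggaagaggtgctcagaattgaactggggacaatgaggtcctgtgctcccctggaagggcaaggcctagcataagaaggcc

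Pieces without any CpG numbered 215 of 26997. A domain call covers the sequenced fragments and their neighbours, so a piece need not contain the modified base.

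Sequence composition, which the choice did not use, changed steadily with the number of pulldowns that shared an enriched call. GC content was 39.04% in sequence enriched in none, 44.1% in 1, 44.9% in 2, 45.7% in 3, 46.8% in 4, 49.7% in 5 and 51.9% in all 6. CpG density was 6.28 per kb in sequence enriched in none, 12.3 per kb in 4, 14.2 per kb in 5 and 16.0 per kb in all 6. Both measures increased at every step on 19 of 19 autosomes. The ratio of observed to expected CpG, which allows for base composition, was 0.238 in the shared pieces, against 0.165 in sequence enriched in none. This ratio is far below the 0.6 required of a CGI, so most of the shared sequence was GC-rich but not CpG-island DNA.

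**Figure D1:**
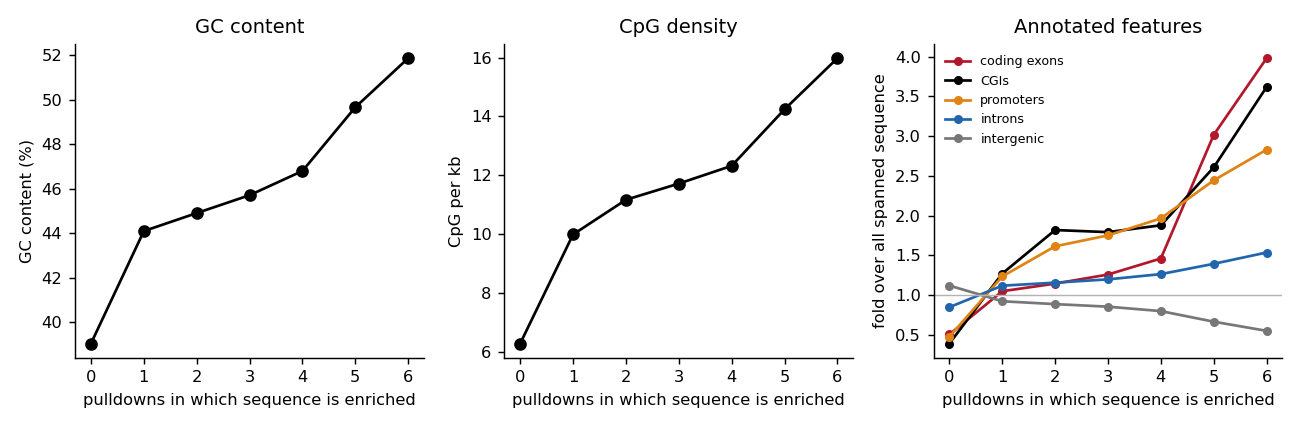
GC content (%, left), CpG per kb (centre) and fold over all spanned autosomal sequence for annotated features (right), by the number of pulldowns, 0 to 6, in which the sequence is enriched. Sequence enriched in all 6 had a GC content of 51.9% and 16.0 CpG per kb, and coding exons reached 3.98-fold.

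Coding exons and CGIs were the features most over-represented in the shared pieces. Coding exons made up 5.70% of the pieces, against 1.43% of all spanned sequence, a 3.98-fold excess. CGIs reached 3.62-fold, or 4.14-fold under a stricter CGI definition, 5' UTRs 3.53-fold, promoters (1 kb upstream of a TSS) 2.83-fold and 3' UTRs 2.77-fold. Introns were at 1.54-fold and intergenic sequence at 0.55-fold. Exons, introns and promoters are those of protein-coding transcripts, so intergenic sequence here includes noncoding genes outside them. All features but intergenic sequence lay above 1 on 19 of 19 autosomes, and intergenic sequence lay below 1 on all 19. Within a single library, coding exons reached 2.06- to 2.82-fold and CGIs 1.75- to 3.32-fold, so both were higher in the shared pieces than in the full set of domains of any 1 library. Set beside sequence enriched in the other 5 pulldowns but not in TDG KD 1, the shared pieces had a higher fold for coding exons (3.982 against 3.495) on 17 of 19 autosomes and for CGIs (3.62 against 2.75) on 16 of 19. Fewer autosomes had a higher fold for promoters (14 of 19), 5' UTRs (13 of 19) and 3' UTRs (12 of 19). For 3' UTRs the folds were close, 2.774 against 2.731. No test was made of these folds, because the pieces are not independent of one another.

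By length, most of the shared sequence was nevertheless neither promoter nor CGI. Introns held 55.9% of the bases and intergenic sequence 33.1%, whereas CGIs held 2.32%. Of the 26997 pieces, 1322 contained the TSS of a gene with a CGI promoter and 678 another protein-coding TSS. A further 1221 touched a CGI away from a TSS, and 5505 touched an exon. Introns alone accounted for 7999 pieces and intergenic sequence for 10272. Pieces at a TSS had a median width of 5000 bp in both classes, against 1300 bp for intron-only and 1400 bp for intergenic pieces. A wider piece is more likely to contain a TSS or touch a CGI or exon, so these widths partly follow from how the classes were made. The CGI promoter pieces had 26.7 CpG per kb and the intergenic ones 12.2 per kb.

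The shared sequence was concentrated in windows of high GC content. In 1 kb windows of 35 to 40% GC, 0.0278% were covered over at least 50% by the shared sequence, whereas 25.5% were at 50 to 55% GC and 40.1% at 55 to 60% GC. In windows of 60% GC and over the share was 24.1%. At 50 to 55% GC, 27.5% of windows with an exon, 30.8% of intronic windows and 19.9% of intergenic windows were covered. At 55 to 60% GC the shares were 40.3%, 51.8% and 28.9%, so intronic windows lay above exonic ones by a wider margin there, with intergenic windows below both in each of these GC ranges. Within the range of 50 to 55% GC the share did not increase with CpG density throughout. It was 18.2% at 0 to 4 CpG per window, 26.97% at 5 to 9, 28.7% at 10 to 19, 19.7% at 20 to 39 and 5.77% at 40 to 79. The part of base composition in the enriched calls, through amplification or sequencing, was not tested.

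**Figure D2:**
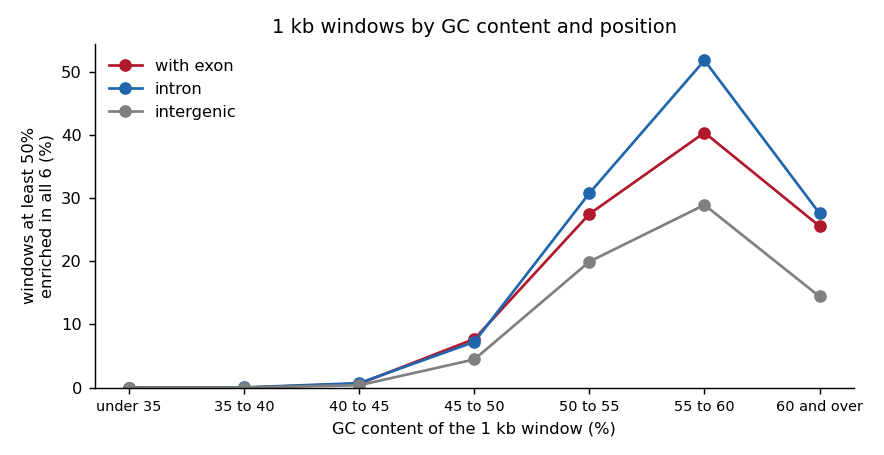
Percent of 1 kb windows covered over at least 50% by sequence enriched in all 6 pulldowns (vertical axis), by GC content of the window (horizontal axis), for windows with an exon, intronic windows and intergenic windows. The share peaked at 55 to 60% GC, at 40.3% with an exon, 51.8% in introns and 28.9% in intergenic windows.

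A sequence chosen from 5 pulldowns can be examined in the pulldown that was held out. Of the sequence enriched in the other 5, 38.6% was enriched in TDG KD 1, 98.6% in TDG KD 2, 98.1% in control 1, 95.8% in control 2, 76.3% in wild type 1 and 96.9% in wild type 2. Each exceeded the share of all autosomal sequence enriched in that library, given above. The difference averaged 64.2 ± 17.4 percentage points (SD, n = 6 pulldowns) and was positive in 6 of 6, with an exact two-sided sign-flip permutation p = 0.03125, the smallest that 6 pulldowns can give. The 6 differences are not independent, since all calls used the same input and each pulldown also helped to choose the sequence for the other 5. This p takes no account of the overlap that the shared input alone would give. That overlap could by itself make every difference positive, so this p cannot decide whether the pulldowns share 5fC. No conclusion is drawn from it. TDG KD 1 was the lowest, but a further 57.3% of the sequence was unconfident rather than background in it. The level had a smaller SD than the calls, but the scales differ and the spreads cannot be compared directly. In the held-out pulldown the mean percentile of the domain value was 87.4 in TDG KD 1, 94.3 in TDG KD 2, 94.1 in control 1, 92.9 in control 2, 81.8 in wild type 1 and 93.3 in wild type 2, where all autosomal sequence averages 50. The excess was 40.7 ± 5.03 percentile points (SD, n = 6; exact sign-flip p = 0.03125, with the same limit). Where both libraries of a condition were held out and the other 4 chose the sequence, the enriched share was 37.4% and 95.5% in TDG KD, 96.96% and 94.7% in the control and 73.6% and 93.5% in wild type.

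**Figure D3:**
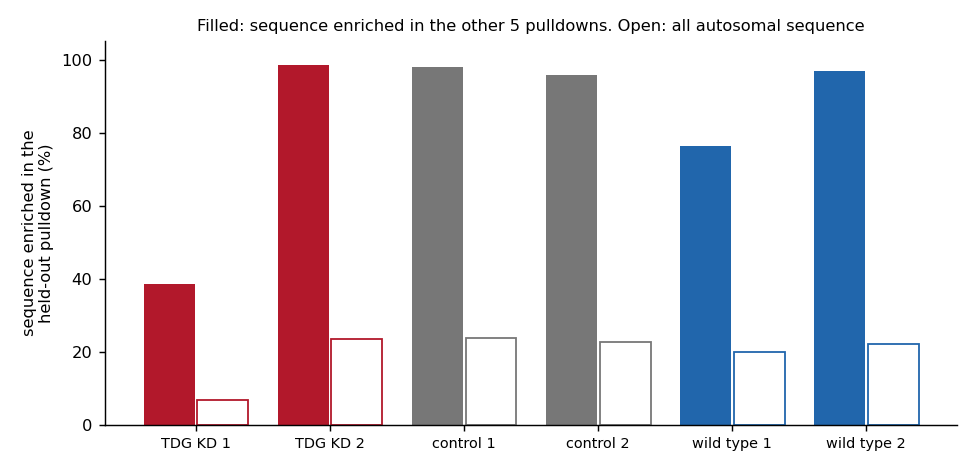
Percent of sequence enriched in the held-out pulldown (vertical axis) for each of the 6 pulldowns, in sequence enriched in the other 5 (filled bars) and in all autosomal sequence (open bars). Filled bars reach 95.8% to 98.6% in 4 pulldowns, 76.3% in wild type 1 and 38.6% in TDG KD 1.

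In the shared pieces the deposited value (pulldown minus input reads, as a mean over the 100 bp bins of a domain) averaged 0.0920 in TDG KD 1 and 1.01 in TDG KD 2. It averaged 0.768 in control 1, 0.438 in control 2, 3.22 in wild type 1 and 0.769 in wild type 2. These values are not scaled for depth. With the mean of each library subtracted and divided by its M reads they were 0.0184 and 0.0320 in TDG KD, 0.0224 and 0.0133 in the control and 0.0519 and 0.0263 in wild type. The same unscaled input was subtracted from every pulldown before this division, so the division does not fully remove depth. The TDG KD and control libraries overlapped, and with 2 libraries each the levels did not separate TDG knockdown from the control. The paper states that its pulldown measures enrichment over the input and not absolute amounts. By mass spectrometry it reports a higher total amount of the modified base after TDG knockdown. The levels here do not address that total amount. These levels were used in the choice and carry no test.

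The sequence that TDG KD 1 also called had higher levels in the other 5 pulldowns than the sequence that it did not call. The mean percentile was 94.9 against 88.5 in TDG KD 2, 94.9 against 87.8 in control 1, 94.4 against 87.5 in control 2, 91.7 against 89.9 in wild type 1 and 94.5 against 89.2 in wild type 2. The difference averaged 5.52 ± 2.20 percentile points (SD, n = 5) in the same direction in 5 of 5 pulldowns. This is a description without a test, since these levels were used in the choice and 5 pulldowns could not have passed a threshold of 0.05.

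Most pieces were narrow. Their median width was 1800 bp, with quartiles of 800 and 3900 bp. The 1567 pieces of at least 10 kb held 24.4 Mb. The median gap to the next piece was 900 bp, and 27.2% of gaps were at most 500 bp. Leaving out wild type 1 left 4954 pieces over 112.4 Mb, and leaving out TDG KD 1 gave 90016 pieces over 221.9 Mb. All pieces fell within 1524 of the 4890 enriched domains of TDG KD 1, and a single domain of 4.74 Mb on chromosome 8 held 1165 of them. Just inside the width minimum, the 1035 pieces of 200 bp had a GC content of 50.1% and 13.5 CpG per kb. Just outside it, the 1124 pieces of 100 bp had 50.2% and 13.1 CpG per kb, and they held 112 kb in all.

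Chromosomes 8 and 11 carried far more shared sequence than the other autosomes. The pieces covered 14.95% of chromosome 8 and 10.2% of chromosome 11, against 0.227% on chromosome 3 and 5.62% on chromosome 4, the lowest and the highest of the other 17. Chromosome 8 held 21.7% of the shared bases and chromosome 11 held 14.0%. Chromosome 8 also stood apart where no enrichment was called. In background sequence its mean level was the highest of 19 autosomes in TDG KD 1, TDG KD 2, control 1 and control 2, but ranked 16 in wild type 1 and 14 in wild type 2. In control 2, for example, the background excess per M reads was 0.00153 on chromosome 8, whereas the other autosomes apart from chromosome 11 lay between -0.00353 and -0.00211. Chromosome 11 ranked 1 to 5 in the 6 libraries. The part of chromosome copy number in these calls was not tested. Without chromosomes 8 and 11, an alternative chosen after the values were seen, 55.1 Mb in 15701 pieces remained, with a CGI fold of 3.58 and a GC content of 52.3%. Across the 19 autosomes the shared share followed GC content with a Spearman rho of 0.73, and 0.71 over the 17 others, a description in which all points share the same libraries.

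**Figure D4:**
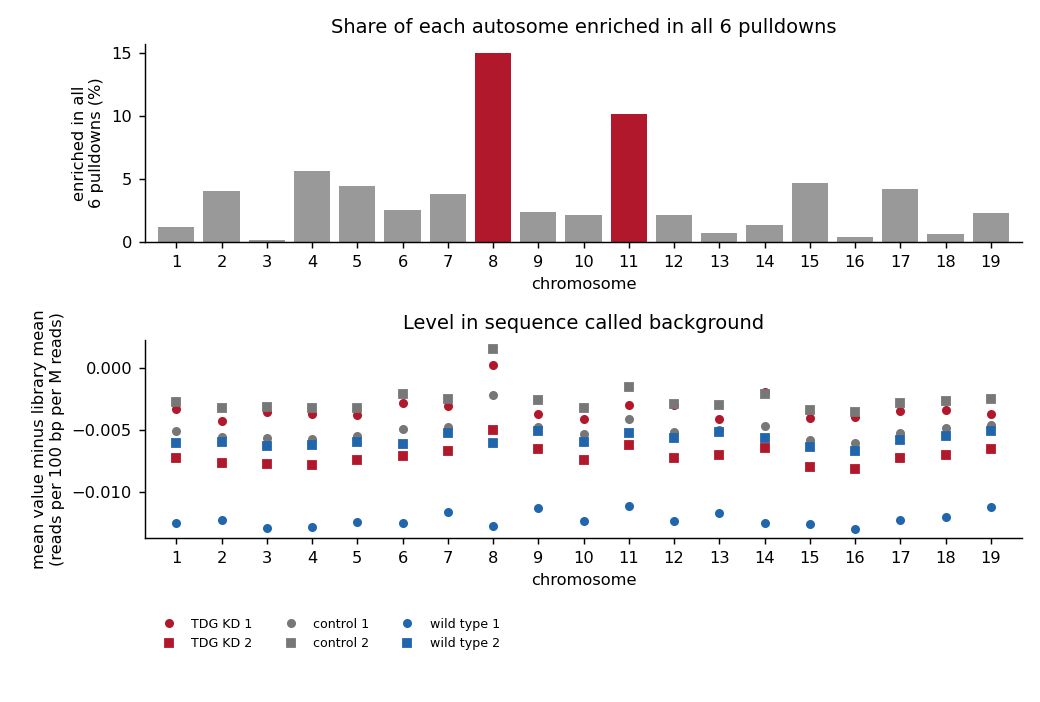
Top, percent of each autosome enriched in all 6 pulldowns, with chromosomes 8 and 11 in red. Bottom, mean deposited value minus the library mean, per M reads, in sequence called background, for each pulldown (reads per 100 bp bin per M reads). Chromosome 8 had the highest background level in the TDG KD and control pulldowns, and ranked 16 and 14 in wild type.

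The shared sequence contained the TSS of 2322 of 21418 protein-coding genes, 10.8%. Genes with a CGI promoter (a CGI within 500 bp of the TSS) were in it in 1532 of 11635 cases, 13.2%, and the others in 790 of 9783, 8.08%. Without TDG KD 1 the shares were 31.6% and 21.5%, and without chromosomes 8 and 11 they were 9.30% and 6.19%, with the CGI promoter genes higher in each case. The profile around CGI promoters peaked at 13.7% at 300 bp downstream of the TSS, against 9.29% at 5 kb upstream and 11.8% at 5 kb downstream. Genes without a CGI promoter had a flatter profile, with a peak of 8.30%. Among other gene types, the TSS lay in the sequence for 12.7% of processed transcripts, 10.9% of lincRNAs, 7.70% of miRNAs and 2.32% of pseudogenes. A CGI promoter was present at 15.7%, 54.5%, 8.04% and 6.46% of these types, so the shares did not follow CGI promoters throughout.

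**Figure D5:**
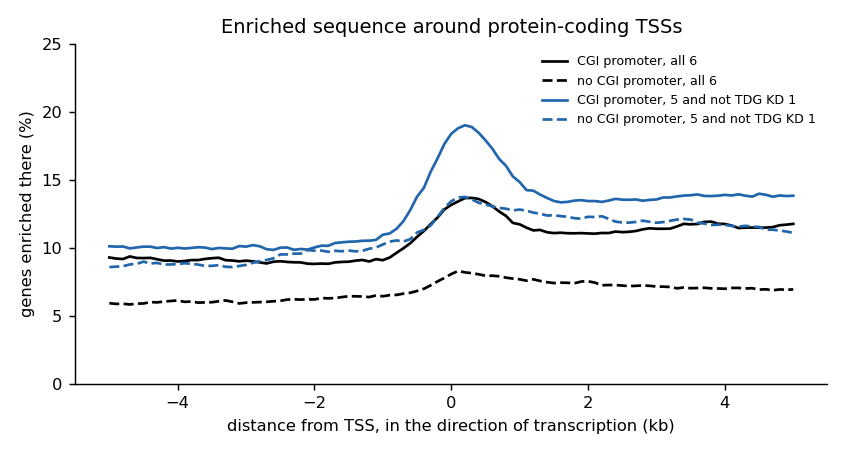
Percent of protein-coding genes whose position at each distance from the TSS (horizontal axis, kb) lies in sequence enriched in all 6 pulldowns (black) or in the other 5 and not in TDG KD 1 (blue), for genes with a CGI promoter (solid) and without (dashed). The black solid line peaks at 13.7% and the black dashed line at 8.30%.

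Of 25829 autosomal CGIs, 3044 (11.8%) had at least 50% of their length in the shared sequence. CGIs inside gene bodies were covered most often, in 952 of 4700 cases (20.3%), those at promoters in 1768 of 12108 (14.6%) and intergenic ones in 324 of 9021 (3.59%). Without TDG KD 1 the share of all CGIs was 26.7%. The longest CGI covered was the 8548 bp island at chr11:74978810-74987357 at Hic1, a transcriptional repressor that is often silenced by methylation in tumours. Its mean value was 0.0229 and 1.16 in TDG KD, 0.668 and 0.354 in the control and 4.05 and 0.800 in wild type, which placed it at percentiles of 92.0 to 98.5 within the 6 libraries. An island of 5176 bp at chr15:76007162-76012337 lay in the body of Plec, which encodes the cytoskeletal linker plectin, with 0.5005 and 1.53 in TDG KD, 1.01 and 0.467 in the control and 4.90 and 1.19 in wild type. Further long islands lay at Cbln1, which encodes a synaptic organizer, at Isyna1, an enzyme of inositol synthesis, and at Ing1, a chromatin regulator, all on chromosome 8.

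The widest of all, chr8:122853967-122919566, covered 65600 bp inside the gene model Gm20388 and touched neither a CGI nor an exon. A piece of 48100 bp at chr17:56498321-56546420 lay in Kdm4b, a histone demethylase gene. Another of 47400 bp on chromosome 4 contained the TSS of Chd5, a chromatin remodeler, and one of 47200 bp on chromosome 6 that of Plxna1, a semaphorin receptor.

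Among 12965 protein-coding genes of at least 10 kb, 1353 had at least 50% of the body in the shared sequence, 60 lay wholly within it and 10716 did not touch it. The longest of the 60 were Cspg4, a proteoglycan gene of 34.8 kb, and Muc5b, a gel-forming mucin gene of 34.0 kb. Pip5k1c, Inf2, Plxnb1, Ints1, Muc6 and Jag2 followed. They encode a phosphoinositide kinase, a formin, a semaphorin receptor, a subunit of the Integrator complex, another mucin and a Notch ligand. Cspg4 had mean values of 0.0573 and 1.18 in TDG KD, 0.782 and 0.468 in the control and 3.66 and 0.861 in wild type. Jag2 had 0.204 and 1.12 in TDG KD, 0.803 and 0.446 in the control and 4.30 and 0.906 in wild type.

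The gene lists were counted by whether the TSS lay in the shared sequence, beside the 10.8% of all protein-coding genes. Most counts depended on TDG KD 1, so each is followed where stated by the count in the sequence shared by the other 5 pulldowns, an alternative chosen after the values were seen, for which the background was 27.0%. Axon guidance genes stood highest, with 16 of 61 (26.2%), and 31 of 61 (50.8%) without TDG KD 1. None of the 16 lay on chromosome 8 or 11. They included the semaphorin receptor genes Plxna1, Plxnb1 and Plxnb2, the semaphorin genes Sema3f and Sema7a and the ephrin gene Efna2. At Plxnb2 the values were 0.129 and 1.17 in TDG KD, 0.783 and 0.343 in the control and 3.39 and 1.02 in wild type. At 57 of the 61 genes the promoter had a CGI, and all CGI promoter genes stood at 13.2%, or 31.6% without TDG KD 1. Without that library the genes of 5mC oxidation, removal and writing (50.0%) and of glycolysis (46.7%) were close to the axon guidance genes. No test was made of the axon guidance list.

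Ribosomal protein genes were in the shared sequence in 9 of 67 cases, among them Rps18, Rps21 and Rpl10a. Hox genes, which pattern the body axis, were in it in 5 of 39 cases, with Hoxb5, Hoxa11 and Hoxa3 in the widest pieces, and in 2 of 29 without chromosomes 8 and 11. Polycomb and Trithorax genes, which keep developmental genes off or on, gave 4 of 37, among them Ring1 and Wbp7. RNA polymerase II and general factor genes gave 3 of 37 (Polr2e, Polr2f and Polr2c), germline genes 2 of 23 (Piwil1 and Tdrd9), glycolysis genes 1 of 15 (Gapdh) and feeder fibroblast marker genes 3 of 20 (Fbln2, Col5a1 and Col1a1). Each of these counts rests on few members, and the shares ran from 6.67% for glycolysis genes to 15.0% for fibroblast marker genes, on either side of the background. Without TDG KD 1, where the background was 27.0%, Hox genes gave 5 of 39 (12.8%) and ribosomal protein genes 15 of 67 (22.4%). Both lists thus lay above the background with all 6 pulldowns but below it without TDG KD 1. Glycolysis genes changed the other way, from below it to above, with 7 of 15 (46.7%). Polycomb and Trithorax genes moved from close to the background to above it, with 13 of 37 (35.1%). Germline genes (5 of 23, 21.7%) and RNA polymerase II and general factor genes (9 of 37, 24.3%) were below it in both cases. Fibroblast marker genes, with 8 of 20, were above it in both.

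Of the 26 genes of 5mC oxidation, removal and writing, 1 had its TSS in the shared sequence, below the background, but without TDG KD 1 it was 13 (50.0%), above the background. The 1 gene was Neil1, a base excision repair glycosylase gene, in a piece of 14600 bp, with 0.0239 and 1.02 in TDG KD, 0.771 and 0.521 in the control and 3.605 and 0.963 in wild type. The TSSs of 13 further genes, including Tet3, Dnmt1, Dnmt3a, Dnmt3b and Dnmt3l, were enriched in 5 of 6 pulldowns, and those of Tet1 and Idh1 in 0. Of 29 pluripotency genes 1 had its TSS in the shared sequence, and 8 (27.6%) without TDG KD 1, close to the background. The 1 gene was Klf2, a transcription factor gene of naive ES cells, in a piece of 8700 bp on chromosome 8, with 0.106 and 1.13 in TDG KD, 0.905 and 0.594 in the control and 3.01 and 0.732 in wild type. Nanog and Esrrb were enriched in 5 of 6 pulldowns, Pou5f1 in 4 and Sox2 in 2. Olfactory receptor genes, which are silent in ES cells, were rarely in it, with 2 of 1106 (0.181%), and 22 (1.99%) without TDG KD 1. Only 3 of them have a CGI promoter.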

How the data were processed

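5fC pulldown sequencing was analysed in 6 libraries of mouse J1 ES cells, 2 each of TDG KD, siRNA control and wild type. DNA carrying 5fC had been tagged with biotin through its formyl group and captured on streptavidin. The authors aligned single-end reads to mm9 with BWA 0.6.1, kept reads with a mapping quality set for unique placement and ran rseg on each pulldown in 100 bp bins, with 1 input library as the control of all. The deposited value of a domain is a score: pulldown minus input reads, averaged over its bins and not scaled for depth. A second deposited score was not used. The rseg version is not given in the sources used here. Read totals came from the study's sequencing summary. Without read counts per region no interval for counting error could be had, and the number of libraries limits the precision.

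Enriched domains of the 6 libraries were intersected base by base on the 19 autosomes, and pieces under 200 bp were dropped. The members and the gene lists were chosen with earlier results of these data known. Genes came from GENCODE M1, and CGIs were called from the NCBIM37 sequence (at least 200 bp, GC over 50%, CpG ratio over 0.6). Folds are relative to sequence spanned by domains of all 6 libraries. Percentiles rank the domain values of a library by length. Held-out comparisons used exact two-sided sign-flip permutation tests over pulldowns at a threshold of 0.05. All other values are descriptions. Replicates were numbered in accession order. Named were the 8 widest pieces, the 8 longest CGIs covered over at least 95%, the 8 genes of at least 10 kb with most of their body in the pieces, and up to 6 list members by the width of the piece at the TSS; the text describes some of them. Olfactory receptor genes were taken by symbol prefix. Of the listed symbols, 1 pluripotency and 1 germline gene were not matched. The computations were tested on simulated data with planted answers. Python 3.11.15, NumPy 2.4.6, pandas 2.3.3, SciPy 1.17.1, numba 0.67.0 and Matplotlib 3.10.9 were used. Alternatives varied the width minimum, the joining of gaps, weak and unconfident domains, the CGI and promoter definitions, chromosomes and the libraries. Repeats were not analysed here, and 1 gene of the lists is not reported here.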

Additional observations from a re-analysis of the deposited data

Results flagged for a closer look

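Values of the 6 pulldowns were compared with one another for a pulldown far from the other 5, in 11 measures, of which 3 had one. Chance alone gives about 1 in 20. Of the sequence enriched in the other 5 pulldowns, 38.6% was enriched in TDG KD 1, far below the other libraries, and 57.3% was unconfident in it. Its own enriched domains also contained the TSS of 11.7% of genes without a CGI promoter, whereas those of the other 5 libraries contained 36.0% to 42.3%. TDG KD 1 had the fewest reads, 20.4 M. The mean deposited value in the shared pieces was 3.22 in wild type 1, far above the other libraries. That library had the most reads, 45.9 M, and the value is not scaled for depth. The part of depth in these values was not tested.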

How the results depend on the processing

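Of 153 alternative values for 12 results, 12 lost a threshold, 19 moved, 122 did neither and 0 changed direction. Moved means over 1.5 times for Mb and pieces, and over 1 SD of the domains of the 6 single pulldowns for the other descriptions, an SD so wide for the TSS shares that 31.6% of CGI promoter TSSs without TDG KD 1 did not count as moved. Dropping the 25% of domains of lowest value left 40.5 Mb in 10764 pieces, with a CGI fold of 4.31, a promoter fold of 3.18 and a CpG ratio of 0.244. Counting unconfident domains as enriched gave 214.1 Mb in 84973 pieces and 21.0% of TSSs without a CGI promoter. Without chromosomes 8 and 11, an alternative chosen after seeing the data, 55.1 Mb in 15701 pieces remained. Leaving out 1 pulldown gave 86.9 to 221.9 Mb in 4954 to 90016 pieces, CGI folds of 2.97 to 3.85, promoter folds of 2.61 to 2.89, TSS shares of 8.19% to 21.5% for genes without a CGI promoter, 11.9% to 26.7% of CGIs and GC contents of 50.4% to 51.8%. The most sequence, the most pieces and the highest TSS and CGI shares came without TDG KD 1, and the fewest pieces and the lowest CGI fold without wild type 1. The held-out enriched share was 62.1 to 70.7 percentage points and the held-out percentile 39.9 to 42.4 points over leaving out 1 pulldown, each with an exact sign-flip permutation p = 0.0625, the smallest that 5 pulldowns can give. Libraries were not paired across conditions, because no test compared conditions and the labels give no replicate numbers. TDG KD 1 had the fewest reads, and the part of depth in its calls was not tested. These p-values are set by all differences having the same sign, so they do not measure the size of the spread between libraries. The limit from the shared input, given above, holds for them too.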
